A study of Mus musculus with 12 samples.

Results

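The comparison set parts 3 and 4 of the mouse posterior neural tube, which was cut into 6 numbered pieces, against parts 1 and 2. It used the 4 arrays titled part 3 or part 4 and the 4 arrays titled part 1 or part 2, chosen by title alone, which are 8 of the 12 arrays of the series. All pieces came from CD1 embryos, an outbred stock, at embryonic day 9.5, and the labels give no treatment. For dissection, every embryo was held in pancreatin, a mixture of digestive enzymes, at 2 mg/ml for 1 min, and the tube was freed from ectoderm, endoderm and lateral plate with needles before it was cut. The design text names 2 embryos, and replicate numbers 1 and 2 were used as a block, so that each piece was compared within its own number. Each side held 2 neighbouring pieces with 2 replicates each. No label ties a replicate number to an embryo, and the numbers were taken to mark the 2 embryos because same-numbered arrays deviated together. Pieces of 1 embryo are not independent, and every p-value below rests on only 2 embryos. The labels do not say which number is the caudal end, so positions are given as part numbers.

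At this stage the mouse neural tube still grows at its caudal end, where a pool of progenitors in the tail bud makes both spinal cord and paraxial mesoderm. Wnt and FGF signals keep these progenitors undifferentiated, and retinoic acid made by the somites promotes neural differentiation as cells leave the pool. The enzyme Cyp26a1 removes retinoic acid from the caudal end. In the tube that has left this zone, SoxB factors mark neural progenitors, and Hedgehog from the ventral side and BMP and Wnt signals from the dorsal side pattern progenitors into domains, each with its own homeodomain and basic helix-loop-helix factors.

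The values were MAS5 signals, linear brightness values per probe set on Affymetrix arrays, scaled by the authors so that the trimmed mean was 100 on each array. The median signal of the 8 arrays lay between 16.8 and 19.1, and the 2 arrays of a piece gave a Pearson r of 0.951 to 0.976 over genes, which are not independent. Differences were taken on the scale log2(signal + 4.43), which understates the change of dim genes. Signals of a few units have no order. A gene was called when the adjusted p of the limma fit of side with replicate number as a block was under 0.05, after Benjamini-Hochberg adjustment over the 12089 genes tested. In such bulk samples, fewer cells of a type and less RNA per cell cannot be told apart.

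Markers of the labelled tissue were present on both sides. The summed signal of the 6 neural tube markers Sox1, Sox2, Sox3, Pax6, Pax3 and Irx3 was 3026 to 4961 in parts 3 and 4, against 630.5 to 1856 in parts 1 and 2. Pax3 and Irx3 of these passed the test. The 6 markers of presomitic mesoderm, the tissue beside the caudal tube that forms somites, summed to 164 to 338 in parts 3 and 4, against 751 to 2930 in parts 1 and 2, and 2 of the 5 tested, Tbx6 and Hes7, were called lower. The 5 somite markers summed to 83.5 to 117 in parts 3 and 4, against 101.5 to 465 in parts 1 and 2, with the top value in replicate 1 of part 2. The 5 surface ectoderm markers summed to 165 to 238 in parts 3 and 4, against 349 to 935 in parts 1 and 2, and Krt8 was called lower. The plot of summed markers shows these courses over all 6 pieces.

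**Figure D1:**
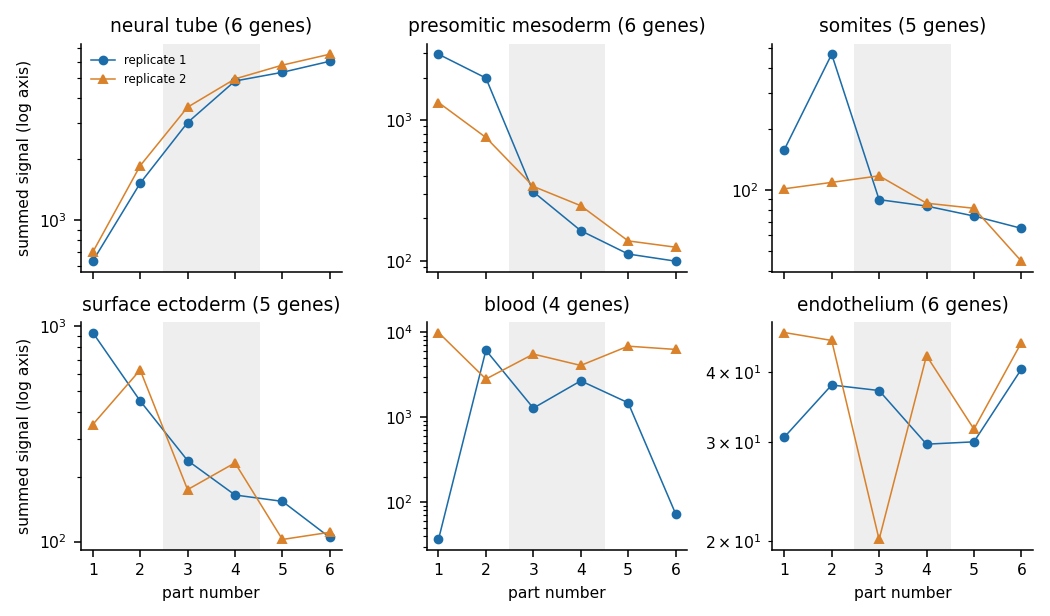
Summed MAS5 signal (log axis) of the markers of 6 tissues against part number, with circles for replicate 1 and triangles for replicate 2 and parts 3 and 4 shaded. Neural tube markers sit at 3026 to 4961 in parts 3 and 4, against 630.5 to 1856 in parts 1 and 2, while presomitic mesoderm markers sit at 164 to 338 in parts 3 and 4, against 751 to 2930 in parts 1 and 2.

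Markers of the other tissues overlapped between the sides. Of the 6 endothelial markers, Pecam1, Cdh5, Tek, Tie1 and Emcn stayed under the median of their own array in all 8 arrays, and the 6 summed to 20.1 to 42.8 in parts 3 and 4, against 30.6 to 47.1 in parts 1 and 2. The gut and visceral endoderm markers summed to 23.1 to 33.7 in parts 3 and 4, against 19.4 to 29.5 in parts 1 and 2, with Ttr, Afp and Apoa1 under the array median throughout. Blood genes were present and uneven, summing to 1278 to 5524 in parts 3 and 4, against 36.5 to 9902 in parts 1 and 2, and none of the 4 tested passed. Of 4 notochord markers, only Shh and Foxj1 were analysed here. They summed to 30.6 to 210 in parts 3 and 4, against 30.8 to 506 in parts 1 and 2, and the highest sums were in replicate 2 of part 4 and replicate 1 of part 2.

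Across the 12089 genes tested, 141 passed (1.17%), of which 56 were higher (0.463%) and 85 lower (0.703%) in parts 3 and 4 than in parts 1 and 2. The median log2 difference was 1.42 among the genes called higher and -1.69 among those called lower, and it was -0.01 over all genes tested. Differences beyond 2 log2 units were seen in 17 of the higher and 29 of the lower genes. All 141 had the same sign in both replicate numbers, and in 137 the 4 arrays of one side lay wholly beyond the 4 of the other, compared with 919 of all genes tested (7.6%). The genes were chosen on these same arrays, which favours both counts, so they are descriptions. The call rests on the spread between all 4 arrays of a side, so the difference between neighbouring pieces counts as error. When each piece had its own coefficient, 407 genes passed with the same 8 arrays. The count also depended on single arrays: it was 14 and 5 without replicate 1 and replicate 2 of part 1, 348 without replicate 2 of part 2, 54 and 53 without those of part 3, and 28 and 13 without those of part 4. It was 0 without both arrays of part 1 and without both arrays of part 4, so that every gene lost its call in these settings. None of the 48 named genes that passed changed sign in the other settings run, which were 20 for 40 of them and 19 for the other 8.

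**Figure D2:**
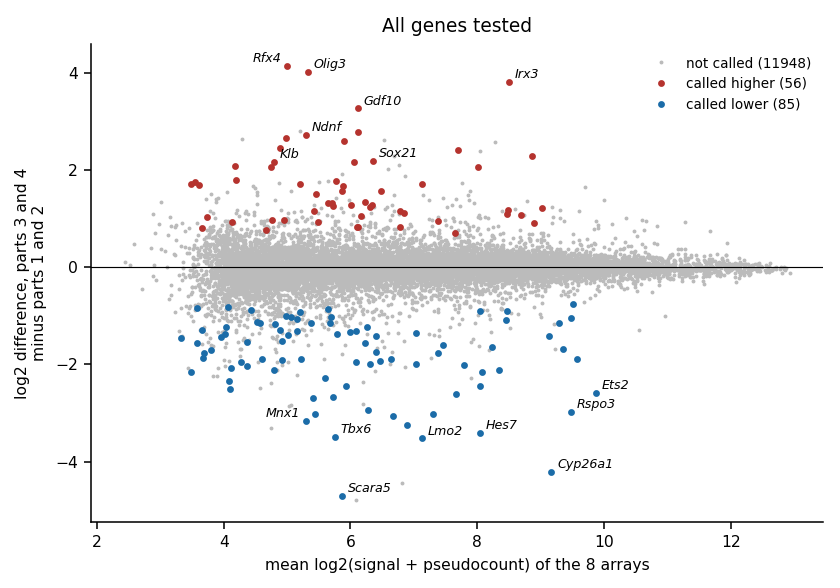
The log2 difference between parts 3 and 4 and parts 1 and 2 against the mean log2 signal of the 8 arrays for each of the 12089 genes tested. The 56 genes called higher are in red and the 85 called lower in blue, and names mark the genes with the widest gaps and some of the largest differences.

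The 3 largest increases were in transcription factors of neural progenitors. Rfx4, a winged-helix factor of the developing brain and spinal cord, had signals of 62.5 and 117 in part 3 and 179.6 and 214 in part 4, against 0.671 and 0.706 in part 1 and 5.13 and 8.61 in part 2 (replicate 1 then 2 in each pair, here and below). Every array of parts 3 and 4 was above every array of parts 1 and 2, where all 4 were under the median of their array. The log2 difference was 4.15 ± 0.42 (SE, n = 4 arrays a side, limma adjusted p = 0.00883), the largest increase among named genes. Sox21, a SoxB2 factor that opposes the SoxB1 proteins and promotes neurogenesis, had 109.8 and 173 in part 3 and 239 and 185 in part 4, against 26.3 and 38.5 in part 1 and 29.4 and 43.7 in part 2. The sides did not overlap, and the difference was 2.19 ± 0.23 (limma adjusted p = 0.00883). These were the 2 of 16 tested SoxB and early neural progenitor genes that were called, and none was called lower. The lowest log2 difference of the list was -2.82, in a gene that did not pass and whose sides overlapped. In 7 of the 16 the arrays of parts 3 and 4 were all higher (3.63% of all genes tested), and the median of the list was 0.39 against -0.01 over all genes. Sox2, the SoxB1 factor of neural progenitors, was among the genes that did not pass, with signals of 1207 to 1649 in parts 3 and 4, against 199 to 981 in parts 1 and 2.

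Of 6 tested factors of the intermediate progenitor domains, 2 were called, both of them higher Iroquois homeodomain factors. Irx3 had signals of 915 and 954 in part 3 and 1888 and 2016 in part 4, against 41.9 and 39.2 in part 1 and 227 and 183 in part 2. The sides did not overlap, and the 4 values of parts 1 and 2 were themselves split, with part 2 above part 1. The log2 difference was 3.81 ± 0.60 (limma adjusted p = 0.0334). Irx5, its close relative, had 83.9 and 125 in part 3 and 172 and 225 in part 4, against 10.9 and 10.9 in part 1 and 37.9 and 31.1 in part 2. Its difference was 2.59 ± 0.42 (limma adjusted p = 0.0349), again with no overlap. All 6 tested members of the intermediate domain list had positive log2 differences, with a median of 0.96, and the other 4 did not pass.

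Of the 17 dorsal progenitor genes tested, 2 were called, both higher. Olig3, a basic helix-loop-helix factor of the dorsal progenitor domains, had signals of 137 and 100.2 in part 3 and 262 and 172 in part 4, against 0.635 and 1.48 in part 1 and 20.6 and 8.85 in part 2. Parts 3 and 4 lay apart from parts 1 and 2, and the log2 difference was 4.02 ± 0.50 (limma adjusted p = 0.0149). Pax3, a paired-domain factor of the dorsal tube and neural crest, was expressed on both sides at 434 and 435 in part 3 and 798 and 555 in part 4, against 279 and 232 in part 1 and 212 and 217 in part 2. It differed by 1.19 ± 0.21 (limma adjusted p = 0.0366), and the sides did not overlap. Other probe sets of Pax3 gave 0.77 and 0.85 and did not pass. The other 15 of the list did not pass, and 3 of them had all arrays of parts 3 and 4 below those of parts 1 and 2 (3.97% of all genes tested). Among these 3 was Pax7, at 0.979 to 2.62 in parts 3 and 4, against 2.83 to 42.8 in parts 1 and 2. Its gap of 0.04 log2 lay between signals of a few units, which have no order. Gdf10, a ligand of the TGF-beta family, was in no list and had 148 and 150.0 in part 3 and 311 and 285 in part 4, against 10.1 and 10.9 in part 1 and 33.1 and 25.3 in part 2. It differed by 3.27 ± 0.39 (limma adjusted p = 0.0141), and the 2 arrays of each piece lay close together.

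Of the 18 ventral and Hedgehog genes tested, 2 were called, both higher. Scube2, a secreted protein that helps release Hedgehog from producing cells, had 43.6 and 42.9 in part 3 and 118 and 139.5 in part 4, against 6.51 and 4.76 in part 1 and 11.7 and 11.3 in part 2. Its difference was 2.66 ± 0.41 (limma adjusted p = 0.0311), and all 4 arrays of parts 1 and 2 were under the median of their array. Boc, a Hedgehog co-receptor, had 110.4 and 101.3 in part 3 and 149.7 and 132 in part 4, against 50.3 and 29.8 in part 1 and 56.5 and 58.7 in part 2, and differed by 1.29 ± 0.21 (limma adjusted p = 0.0350). Neither gene's sides overlapped, and another probe set of Boc gave 0.68 and did not pass. Another 5 of the 18 had all arrays of parts 3 and 4 higher without passing, which makes 7 of 18 (3.63% of all genes tested), and the median of the list was 0.62.

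**Figure D3:**
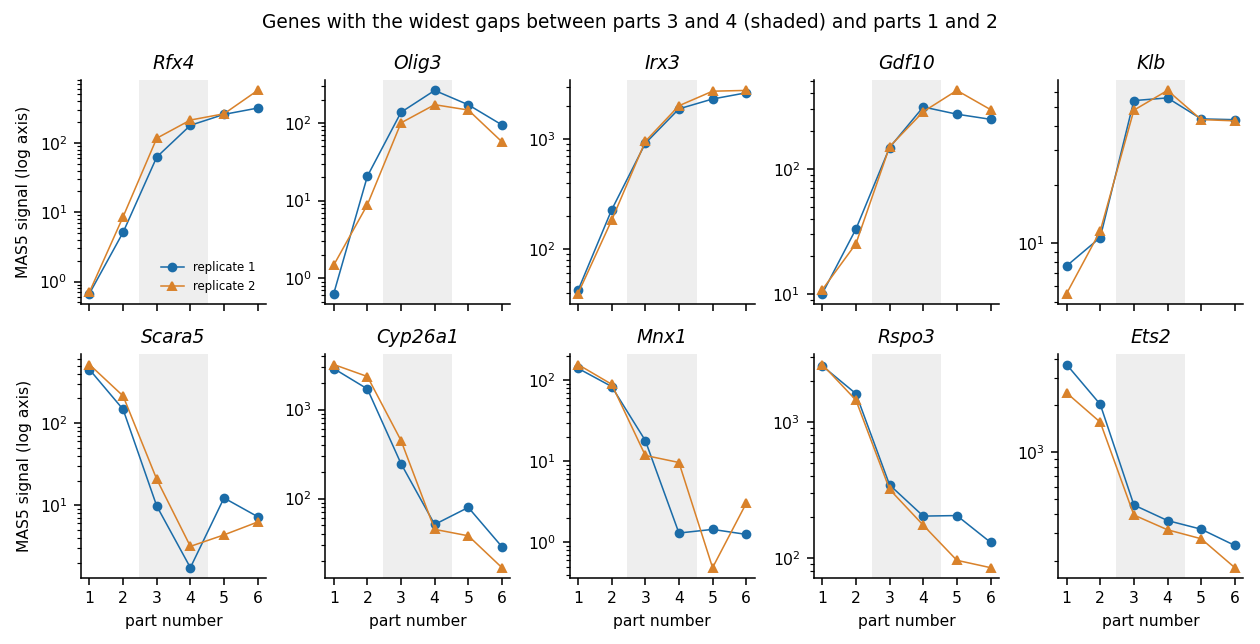
MAS5 signal (log axis) against part number for the 10 called genes with the widest gaps between the sides, 5 higher (top) and 5 lower (bottom) in parts 3 and 4, which are shaded. Circles are replicate 1 and triangles replicate 2, and in every panel the 4 shaded points lie apart from the 4 points of parts 1 and 2.

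Among genes of cell adhesion and the cell surface, 3 of 14 tested cadherins and neural adhesion genes were called, all higher. Cdh6, a cadherin of the dorsal tube and early neural crest, had 448 and 444 in part 3 and 611 and 620.1 in part 4, against 112 and 81.9 in part 1 and 132 and 181 in part 2, and differed by 2.07 ± 0.25 (limma adjusted p = 0.0141). It was also the only called member of 13 tested neural crest genes, a list with a median of -0.33. Nrcam, an adhesion molecule of the immunoglobulin family that guides axons, had 98.4 and 98.9 in part 3 and 168 and 211 in part 4, against 19.8 and 15.7 in part 1 and 35.98 and 45.5 in part 2, and differed by 2.16 ± 0.36 (limma adjusted p = 0.0350). Cntn2, an axonal adhesion protein, had signals of 22.4 to 32.9 in parts 3 and 4, against 13.2 to 16.5 in parts 1 and 2, where all 4 arrays were under the median of their array, and differed by 0.76 ± 0.14 (limma adjusted p = 0.0473). Klb, the co-receptor of the endocrine FGFs, had signals of 54.00 and 48.2 in part 3 and 55.8 and 60.9 in part 4, against 7.64 and 5.51 in part 1 and 10.7 and 11.6 in part 2, with no overlap, and the difference was 2.18 ± 0.18 (limma adjusted p = 0.00678). Klb lost its call in 2 of its 19 other settings, those that left out all of part 1 or all of part 4. Dimmer probe sets gave smaller differences that did not pass, 1.14 for Cdh6 and 0.51 to 1.63 for Nrcam.

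The remaining large increases had no common role in the lists. Ndnf, a secreted neurotrophic factor, had 72.9 and 69.3 in part 3 and 126 and 138 in part 4, against 8.28 and 8.34 in part 1 and 10.4 and 18.3 in part 2, and differed by 2.73 ± 0.28 (limma adjusted p = 0.00883). Kcne1l, an accessory subunit of potassium channels, had 66.2 and 52.99 in part 3 and 86.6 and 57.8 in part 4, against 2.52 and 2.51 in part 1 and 21.3 and 15.7 in part 2, and differed by 2.46 ± 0.44. Miat, a long non-coding RNA, had 334 and 390.4 in part 3 and 541 and 700.1 in part 4, against 38.3 and 68.2 in part 1 and 111 and 177 in part 2, and differed by 2.41 ± 0.40. The HMG-box factor Tox2, read by a probe set whose probes may match other transcripts, had 1159 and 593 in part 3 and 1234 and 1306 in part 4, against 160.5 and 114 in part 1 and 275 and 348 in part 2, and differed by 2.30 ± 0.38. For these last 3 the limma adjusted p-values were 0.0394 for Kcne1l, 0.0358 for Miat and 0.0350 for Tox2, and in none of the 4 genes did the sides overlap. A dimmer probe set gave 0.45 for Ndnf and 0.99 for Miat, and neither passed.

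Of 19 tested members of the caudal epiblast and tail bud list, 4 were called, all lower, 7 had all arrays of parts 3 and 4 below those of parts 1 and 2 (3.97% of all genes tested), and the median was -0.58. The largest of these decreases was in Cyp26a1, the enzyme that degrades retinoic acid, which is itself a known target of retinoic acid receptors. A retinoic acid response element of the direct-repeat type with a spacer of 5 lies just before its start site, and the same element was found in the promoter of 1 other gene called lower, Prokr2, a prokineticin receptor. Prokr2 falls outside the rule for named genes and is shown because of this match. Both are given 5′ to 3′ on the gene's own strand from RefSeq (mouse build GRCm38.p6), at chr19:37697708-37697807, plus strand, for Cyp26a1 and chr2:132385532-132385631, minus strand, for Prokr2, with the element in capitals, on the opposite strand in Cyp26a1 and on the gene's strand in Prokr2.
Cyp26a1: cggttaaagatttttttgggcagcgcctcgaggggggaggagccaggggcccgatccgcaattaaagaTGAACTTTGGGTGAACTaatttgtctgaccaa
Prokr2: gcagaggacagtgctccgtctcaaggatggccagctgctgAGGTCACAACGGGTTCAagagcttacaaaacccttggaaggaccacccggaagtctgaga

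Cyp26a1 had signals of 247 and 449.5 in part 3 and 51.1 and 45.01 in part 4, against 2899 and 3217 in part 1 and 1709.5 and 2358 in part 2. In part 3 both arrays were already far below every array of part 2. The log2 difference was -4.22 ± 0.68 (limma adjusted p = 0.0350). Prokr2 had 13.2 and 4.39 in part 3 and 16.1 and 5.69 in part 4, against 119 and 61.5 in part 1 and 35.1 and 30.2 in part 2. Its difference was -2.11 ± 0.35 (limma adjusted p = 0.0358), with parts 3 and 4 under the array median in all 4 arrays. The element was found in 2 of the 62 promoters matched for genes called lower (3.23%), in none of the 40 matched for genes called higher, in 6 of the 9783 matched among genes tested (0.0613%) and in 25 of all 27025 promoters listed (0.0925%). Without parts 1 and 2, Prokr2 would not have passed the filter on dim signals, so it adds no support to the 3.23%. Cyp26a1 was the only called gene of the 13 tested in the retinoid pathway, whose median was 0.12.

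Another 3 of the called tail bud genes belong to Wnt signalling or answer to it. Wnt3a, the ligand that maintains tail bud progenitors, had 14.9 and 25.4 in part 3 and 24.2 and 24.1 in part 4, against 305 and 149 in part 1 and 89.3 and 90.6 in part 2. Wnt5b, a related ligand of the caudal embryo, had 124 and 133 in part 3 and 102 and 80.5 in part 4, against 1009 and 813 in part 1 and 370.5 and 452 in part 2, on a probe set whose probes may match other transcripts. In both genes parts 3 and 4 lay wholly below parts 1 and 2, by -2.45 ± 0.37 in Wnt3a (limma adjusted p = 0.0301) and -2.45 ± 0.33 in Wnt5b (limma adjusted p = 0.0209). Cdx1, a caudal homeodomain factor regulated by Wnt, differed by -1.56 ± 0.20 (limma adjusted p = 0.0202) at signals of 0.950 to 4.96 in parts 3 and 4, against 12.8 to 20.7 in parts 1 and 2. All 4 of its arrays in parts 3 and 4 were under the median of their array, as was 1 array each of part 1 and part 2. Cdx1 thus passed the filter on dim signals only through 2 arrays of its higher side, and its call adds no support to that of the list. Without parts 1 and 2, Tbx6, Mnx1, Cited1, Egr1, Scara5, Spry4 and Prokr2 would not have passed that filter either. Where these genes belong to a list, their calls add no support to it.

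The heptamer CTTTGAT, a core site of the TCF/LEF factors that carry Wnt signals, was searched on both strands of the promoters. It lies at -71 in Wnt5b and at -104 in Sp5, counted from the start site. The 2 windows are printed from RefSeq (GRCm38.p6), at chr6:119449398-119449497, minus strand, for Wnt5b and chr2:70474779-70474878, plus strand, for Sp5, with the heptamer in capitals. Both matches are on the gene's strand and overlap no other motif searched.
Wnt5b: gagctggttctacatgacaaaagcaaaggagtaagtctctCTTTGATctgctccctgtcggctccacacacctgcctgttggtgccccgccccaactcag
Sp5: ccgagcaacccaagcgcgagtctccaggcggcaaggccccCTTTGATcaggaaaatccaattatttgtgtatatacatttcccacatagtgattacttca

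Sp5, a zinc-finger factor that is a direct Wnt target, had 38.5 and 57.8 in part 3 and 28.03 and 35.6 in part 4, against 125 and 83.4 in part 1 and 115 and 92.8 in part 2, and differed by -1.31 ± 0.22 (limma adjusted p = 0.0365). Rspo3, a secreted R-spondin that raises Wnt receptor levels, had 344 and 319.7 in part 3 and 203 and 174 in part 4, against 2581 and 2641 in part 1 and 1612 and 1445 in part 2. The 4 arrays of parts 3 and 4 were all far below those of parts 1 and 2, and the log2 difference was -2.97 ± 0.29 (limma adjusted p = 0.00883). Rspo3 is also a gene of presomitic mesoderm. These were the 2 of 13 tested Wnt targets and feedback genes that were called, with a list median of -0.73. The heptamer was found in 3 of 62 promoters of genes called lower (4.84%), in 0 of 40 of genes called higher, in 2.6% of the promoters of genes tested and in 3.7% of all promoters listed. No Frizzled receptor or secreted Wnt antagonist of 17 tested was called. All arrays of parts 3 and 4 were higher in 5 of the 17 (3.63% of all genes tested), and the median was 0.22. The smallest p among them was that of Fzd9, at 58.7 to 71.03 in parts 3 and 4, against 18.01 to 47.8 in parts 1 and 2 (log2 difference 1.07 ± 0.28, limma adjusted p = 0.119).

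Of 13 tested genes of FGF and ERK feedback, 2 were called lower and 1 higher. Spry4, an inhibitor that FGF signals induce, had 17.2 and 23.5 in part 3 and 2.99 and 7.82 in part 4, against 172 and 117 in part 1 and 75.2 and 134 in part 2, and the sides did not overlap. Its log2 difference was -3.02 ± 0.41 (limma adjusted p = 0.0209), while dimmer probe sets of Spry4 gave -1.31 and -0.82, which did not pass. Dusp4, a phosphatase of MAP kinases, had 399 and 576 in part 3 and 343 and 379 in part 4, against 1154 and 927 in part 1 and 747 and 909 in part 2, and differed by -1.14 ± 0.19 (limma adjusted p = 0.0365). Fgfbp3, a secreted protein that binds FGFs, was higher instead, at 35.4 and 31.3 in part 3 and 49.3 and 43.2 in part 4, against 21.6 and 16.6 in part 1 and 15.8 and 17.2 in part 2, by 0.98 ± 0.16 (limma adjusted p = 0.0350). In these 3 genes the sides did not overlap, and the list, with a median of 0.07, held changes in both directions. None of the 5 FGF receptors tested was called. Fgfr2 had the smallest p, with 164 and 138 in part 3 and 372 and 292 in part 4, against 74.2 and 17.6 in part 1 and 47.6 and 80.4 in part 2, with a difference of 2.11 ± 0.45 (limma adjusted p = 0.0692).

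Of 23 tested Notch pathway genes, 2 were called, both lower. Hes7, the repressor that drives the segmentation clock of presomitic mesoderm, is a target of Notch. The heptamer GTGGGAA, a core site of the Notch effector RBPJ, was searched in the same way and lies at -180 in its promoter on the opposite strand, where it reads as the capitals in the RefSeq window at chr11:69120233-69120332, plus strand (GRCm38.p6).
Hes7: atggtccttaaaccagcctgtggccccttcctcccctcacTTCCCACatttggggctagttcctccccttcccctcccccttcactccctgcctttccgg

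Hes7 had signals of 142 and 103 in part 3 and 41.8 and 52.8 in part 4, against 1419 and 834 in part 1 and 960.5 and 465 in part 2, so that all arrays of parts 3 and 4 were below those of parts 1 and 2. Its log2 difference was -3.41 ± 0.41 (limma adjusted p = 0.0141). Notch4, a receptor known mainly from endothelium, had 34.5 and 36.5 in part 3 and 37.6 and 33.1 in part 4, against 358 and 131 in part 1 and 191 and 62.8 in part 2, and differed by -2.0 ± 0.35 (limma adjusted p = 0.0394). The sides did not overlap. In 8 of the 23 Notch pathway genes, all arrays of parts 3 and 4 were lower (3.97% of all genes tested). GTGGGAA was found in 6 of 62 promoters of genes called lower (9.68%), in 2 of 40 of genes called higher (5%), in 6.18% of those of genes tested and in 6.4% of all promoters listed. The CDX heptamer TTTATGG was found in 2 of the 62 promoters, in 1.73% of those of genes tested and in 2.83% of all promoters. The T-box octamer AGGTGTGA was found in 0 of the 62, in 0.808% of those of genes tested and in 1.28% of all.

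Several genes that were called lower, among them Tbx6 of mesoderm, had replicate 1 well above replicate 2 in both part 1 and part 2. Tbx6, the T-box factor that commits cells to presomitic mesoderm, had 7.54 and 13.2 in part 3 and 11.2 and 15.8 in part 4, against 518 and 188 in part 1 and 272 and 33.7 in part 2. Replicate 2 of part 2 was close to the values of parts 3 and 4, and replicate 1 was not. The log2 difference was -3.49 ± 0.63 (limma adjusted p = 0.0432), made up of -4.80 in replicate 1 and -2.18 in replicate 2. Cited1, a transcriptional cofactor counted in the notochord list, had 3.18 and 2.23 in part 3 and 4.54 and 1.38 in part 4, against 117 and 24.5 in part 1 and 72.6 and 5.73 in part 2, and differed by -2.51 ± 0.47 (limma adjusted p = 0.0480). Eogt, a glycosyltransferase that modifies Notch receptors, had 69.96 and 39.98 in part 3 and 65.2 and 36.4 in part 4, against 1249 and 548 in part 1 and 663 and 82.5 in part 2, and differed by -3.02 ± 0.54 (limma adjusted p = 0.0410). In both genes, too, replicate 2 of part 2 was the lowest array of parts 1 and 2. Other probe sets of Eogt gave -2.49, which passed, and -2.93, which did not. Foxc2, a somite factor that was not called, had 0.702 and 0.524 in part 3 and 0.928 and 1.18 in part 4, against 36.6 and 1.05 in part 1 and 185 and 1.15 in part 2, so that its signal was carried by replicate 1.

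The summed presomitic mesoderm markers given above, which include Tbx6 and Hes7, were also lower in parts 3 and 4, and the part of mesoderm cells in the differences was not tested. Of 11 tested presomitic mesoderm genes, 3 were called, all lower (Tbx6, Hes7 and Rspo3), and the median was -1.49. The log2 differences of this list ran from -4.44 to 2.62, and the genes at both ends did not pass. All arrays of parts 3 and 4 lay below parts 1 and 2 in 6 of the 11 (3.97% of all genes tested). Tbx6 passed the filter on dim signals only through its higher side, so it adds no support to these counts. None of the 5 tested somite genes was called, with a median of -0.78. A test of whether the difference between the sides itself differed between replicate numbers, with limma, called 0 of 12089 genes (0%), and 447 had an unadjusted p under 0.05 (3.7%). Without replicate 1 of part 1 that test called 2.

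**Figure D4:**
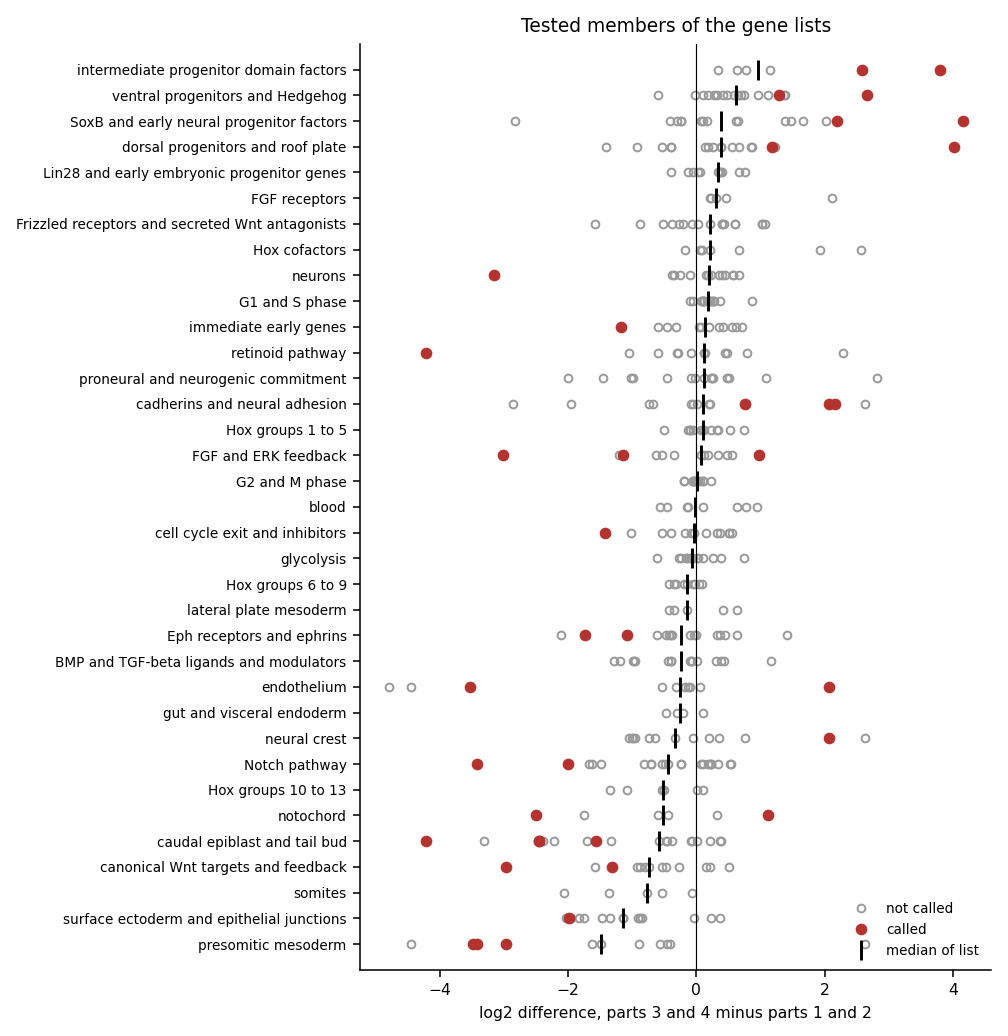
Log2 differences between parts 3 and 4 and parts 1 and 2 of all tested members of the 35 gene lists, in order of the list median (bar), with called genes filled and others open. Intermediate and ventral progenitor lists lie at the top with medians of 0.96 and 0.62, and presomitic mesoderm lies at the bottom with a median of -1.49.

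The called gene with the largest decrease was in none of the lists. Scara5, a scavenger receptor that takes up ferritin, had 9.78 and 20.7 in part 3 and 1.74 and 3.16 in part 4, against 450.0 and 517 in part 1 and 147 and 214 in part 2. No other named gene had a wider gap between the sides, and the difference was -4.71 ± 0.51 (limma adjusted p = 0.0112). Ets2, an ETS-domain factor downstream of ERK signals, had 456 and 393 in part 3 and 362 and 316 in part 4, against 3661 and 2404 in part 1 and 2029.8 and 1558 in part 2. Its difference of -2.59 ± 0.23 had a limma adjusted p of 0.00678. Mnx1, a homeodomain factor counted in the neuron list, had 18.00 and 11.8 in part 3 and 1.30 and 9.64 in part 4, against 139.7 and 156 in part 1 and 83.3 and 88.8 in part 2. It differed by -3.16 ± 0.40 (limma adjusted p = 0.0172) and was the only called gene of 14 tested in the neuron list, whose median was 0.20. In parts 3 and 4 all 4 arrays of Mnx1 were under the median of their array, as were those of parts 5 and 6. It thus passed the filter on dim signals only through its higher side, and its call adds no support to that of the list.

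Lypd6b, of the Ly6 family of surface proteins, had 64.8 and 56.3 in part 3 and 19.6 and 17.9 in part 4, against 631 and 451 in part 1 and 214 and 282 in part 2, and differed by -3.24 ± 0.47 (limma adjusted p = 0.0267). Adamtsl2, a secreted glycoprotein of the extracellular matrix, had 55.1 and 45.1 in part 3 and 27.1 and 12.1 in part 4, against 659 and 345 in part 1 and 183 and 170.5 in part 2, and differed by -3.07 ± 0.48 (limma adjusted p = 0.0334). Cd40, a receptor of the TNF family known from immune cells, was read by a probe set whose probes may match other transcripts. Its signals were 15.6 to 32.3 in parts 3 and 4, against 117 to 404 in parts 1 and 2, with a difference of -2.94 ± 0.40 (limma adjusted p = 0.0209). Another probe set of Cd40 gave -2.35, and the dimmest gave -1.14 and did not pass. Parts 3 and 4 lay below parts 1 and 2 in each of these 3 genes.

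Lmo2, a LIM-only protein needed for blood and endothelium, had 79.9 and 62.9 in part 3 and 18.3 and 17.9 in part 4, against 609 and 562 in part 1 and 576 and 246 in part 2, and differed by -3.52 ± 0.49 (limma adjusted p = 0.0215). Cldn5, the tight junction protein of endothelium, was higher instead, at 41.3 to 62.7 in parts 3 and 4, against 2.68 to 22.4 in parts 1 and 2, by 2.07 ± 0.38 (limma adjusted p = 0.0438). They were the only calls of 10 tested endothelial genes and went in opposite directions, while 5 of 6 defining endothelial markers stayed under the array median. The list had a median of -0.25. Another member, which did not pass, had the lowest log2 difference of all genes tested, -4.79. Krt8, a keratin of simple epithelia, had 72.3 and 55.6 in part 3 and 39.7 and 89.1 in part 4, against 449.9 and 149 in part 1 and 234 and 276 in part 2, and differed by -1.98 ± 0.35 (limma adjusted p = 0.0384). In Lmo2, Cldn5 and Krt8 the sides did not overlap. Other probe sets of Krt8 gave -2.04 and -1.83 and did not pass. Krt8 was the only call among 15 tested surface ectoderm and junction genes, whose median was -1.15. All arrays of parts 3 and 4 were lower in 4 of the 15 (3.97% of all genes tested). Among these was Cdh1, at 2.02 to 15.95 in parts 3 and 4, against 16.1 to 105.8 in parts 1 and 2. Cdh1 passed the filter on dim signals only through its higher side, so it adds no support to this count. The part of surface ectoderm in these values was not tested. Col2a1, a fibrillar collagen of notochord and cartilage that early neural tissue also makes, was higher, at 134 to 203 in parts 3 and 4, against 63.2 to 98.2 in parts 1 and 2, by 1.11 ± 0.18 (limma adjusted p = 0.0340).

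Of 16 tested Eph receptors and ephrins, 2 receptors of repulsive cell contact were called lower. Epha1 had signals of 23.6 to 65.7 in parts 3 and 4, against 104 to 206 in parts 1 and 2, and differed by -1.74 ± 0.30 (limma adjusted p = 0.0365). Epha4, on a probe set whose probes may match other transcripts, had 203 to 283 in parts 3 and 4, against 462 to 557 in parts 1 and 2, and differed by -1.08 ± 0.15 (limma adjusted p = 0.0209). Other probe sets gave smaller differences that did not pass, -0.72 for Epha1 and, at the smallest, -0.49 for Epha4. The lists of cell cycle exit and of immediate early genes held a single call each. Cdkn1a, an inhibitor of cyclin-dependent kinases, had 55.3 and 49.4 in part 3 and 34.00 and 53.2 in part 4, against 132 and 115 in part 1 and 136 and 155 in part 2, and differed by -1.42 ± 0.17 (limma adjusted p = 0.0147), as 1 of 13 tested genes of cell cycle exit. Egr1, an immediate early factor of ERK signals, had 11.8 to 17.6 in parts 3 and 4, against 29.4 to 55.8 in parts 1 and 2, and differed by -1.18 ± 0.21 (limma adjusted p = 0.0399), as 1 of 12 tested immediate early genes. The sides of all 4 genes were apart.

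The lists of cell cycle phases, glycolysis and Hox genes held no call. Among 18 tested genes of the G2 and M phases the log2 differences lay between -0.19 and 0.22 with a median of 0.01, and among 18 of G1 and S phase between -0.09 and 0.86 with a median of 0.19. The 17 tested glycolysis genes had a median of -0.06. No Hox gene was called out of 13 tested in groups 1 to 5, 9 in groups 6 to 9 and 6 in groups 10 to 13, with medians of 0.10, -0.15 and -0.52. Hoxd13, of the last group, had 19.6 to 171 in parts 3 and 4, against 82.5 to 265 in parts 1 and 2, which overlap, with a difference of -1.35 ± 0.35 (limma adjusted p = 0.113). Of the Hox cofactors, Meis1 had the smallest p, with 62.8 and 95.3 in part 3 and 162 and 145 in part 4, against 11.9 and 14.3 in part 1 and 60.3 and 36.1 in part 2, with a difference of 1.92 ± 0.48 (limma adjusted p = 0.105). Cdx2, a homeodomain factor of the caudal embryo, had 659 to 884 in parts 3 and 4, against 822 to 1630.0 in parts 1 and 2, which also overlap, with a difference of -0.48 ± 0.20 (limma adjusted p = 0.319). In all, 19 of the 35 lists held at least 1 call, and 33 of the 405 distinct genes tested in them were called (8.15%, against 1.17% of all genes tested). The lists were chosen with earlier results of these data known, so the higher share is a description and no support. Of the 141 called genes, 108 were in no list.

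The lists of proneural genes and of BMP and TGF-beta ligands and modulators, which do not hold Gdf10, had no call either. Of 15 tested proneural genes, whose median was 0.12, Ebf2 had the smallest p. This helix-loop-helix factor of early neurons had 13.7 and 16.1 in part 3 and 9.14 and 10.5 in part 4, against 73.03 and 20.3 in part 1 and 73.01 and 24.6 in part 2, and replicate 1 was above replicate 2 in both part 1 and part 2 (difference -1.46 ± 0.33, limma adjusted p = 0.0773). Of 16 tested ligands and modulators of BMP and TGF-beta, with a median of -0.24, Grem1 had the smallest p. This secreted BMP antagonist had 20.7 and 25.3 in part 3 and 28.4 and 31.1 in part 4, against 4.99 and 6.66 in part 1 and 12.5 and 15.1 in part 2, and differed by 1.17 ± 0.24 (limma adjusted p = 0.0616). Mycn, a growth-promoting factor of progenitors, led 11 tested genes of the early embryonic progenitor list, with 1735 to 2244 in parts 3 and 4, against 848 to 1645 in parts 1 and 2, and a difference of 0.76 ± 0.19 (limma adjusted p = 0.109). The glucose transporter Slc2a1 led the glycolysis list, with 3389 to 4978 in parts 3 and 4, against 1829 to 3289 in parts 1 and 2, and a difference of 0.75 ± 0.20 (limma adjusted p = 0.126). For each of these 4 genes the arrays of the sides did not overlap, and the test was not passed.

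The next question was whether the change lay between parts 2 and 3 or ran on along the tube. Of the 141 called genes, 124 had their largest step between consecutive pieces at parts 2 to 3, 49 of the higher and 75 of the lower genes. The comparison that chose these genes favours that step, so this count is a description, as are the median steps and the later course given next. The median steps of the higher genes, from part 1 to part 6 in order, were 0.40, 0.96, 0.39, 0.17 and -0.01 log2. In the lower genes, with the sign turned, they were 0.53, 1.24, 0.24, 0.19 and 0.09. Relative to parts 3 and 4, parts 5 and 6 moved on in the same direction by over 0.5 log2 in 56 of the 141 genes, stayed within 0.5 in 72 and moved back by over 0.5 in 13.

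**Figure D5:**
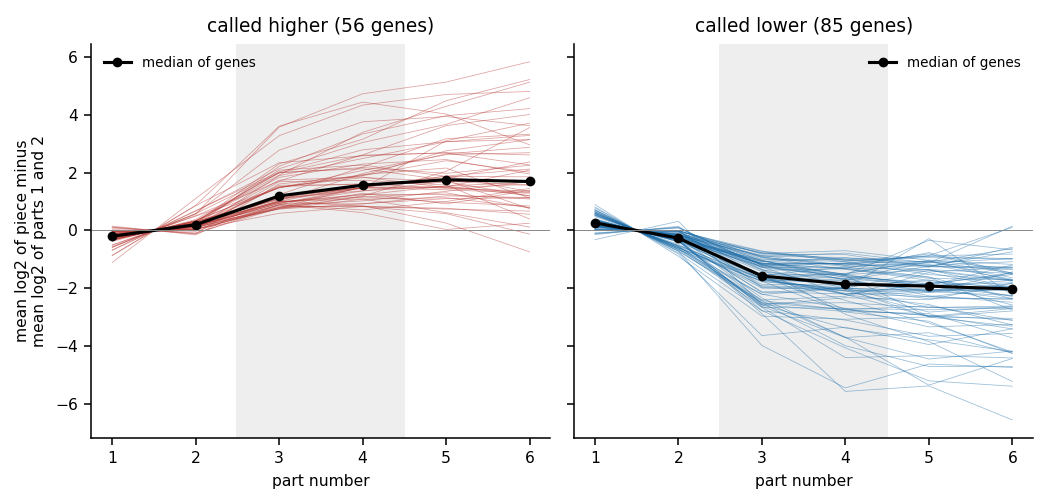
Mean log2(signal + 4.43) of each piece relative to the mean of parts 1 and 2, against part number, for the 56 genes called higher (left) and the 85 called lower (right), with the median of the genes in black and parts 3 and 4 shaded. Thin lines are genes, each the mean of 2 arrays a piece, and the medians change most between parts 2 and 3. The comparison that chose the genes favours that step.

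Whether the step to parts 3 and 4 differed from the following step to parts 5 and 6 was tested over all 12 arrays with 1 coefficient per piece and the replicate block. These 2 steps share the arrays of parts 3 and 4. The difference passed in 89 genes (0.736%), 48 of them positive and 41 negative, and 28 of the 89 were among the 141 called genes. That count was 50 without replicate 1 of part 2, 23 and 14 without the replicates of part 3, 13 and 19 without those of part 4, 51 and 39 without those of part 5, and 38 and 41 without those of part 6. The following step itself, from the same fit, passed in 313 genes (2.59%), 148 of them higher (1.22%) and 165 lower (1.36%) in parts 5 and 6 than in parts 3 and 4. Of the 141 genes, it carried 34 further in the same direction and 4 back, and in 103 it did not pass.

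In Olig3 the difference between the steps was 4.55 ± 0.31 log2 (limma adjusted p = 0.00159), and its signals of 171 and 147 in part 5 and 94.3 and 57.1 in part 6 lay within or below the range of parts 3 and 4. Irx3 had a difference of 2.86 ± 0.20 (limma adjusted p = 0.00159), Klb one of 2.49 ± 0.19 (limma adjusted p = 0.00159) and Scara5 one of -4.74 ± 0.44 (limma adjusted p = 0.00381). In each of these the first step was the larger. For other genes the 2 steps were not shown to differ: in Ndnf the following step was 2.13 and the difference 0.60 ± 0.23 (limma adjusted p = 0.438), and in Scube2 the following step was 2.05 and the difference 0.60 ± 0.21 (limma adjusted p = 0.374). The signals of Ndnf were 302 and 381 in part 5 and 537 and 596 in part 6, and those of Scube2 217 and 273 in part 5 and 421 and 454 in part 6. Hes7 had 16.1 and 22.1 in part 5 and 17.6 and 14.6 in part 6, with a difference between steps of -1.54 ± 0.41 (limma adjusted p = 0.202).

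Only 4 named genes met the rule of passing in both tests with parts 5 and 6 nearer to parts 1 and 2 than to parts 3 and 4. Aldh1b1, a mitochondrial aldehyde dehydrogenase, had 78.3 and 94.7 in part 3 and 91.2 and 88.9 in part 4, against 33.5 and 57.5 in part 1 and 50.6 and 52.6 in part 2, and then 61.5 and 54.2 in part 5 and 18.7 and 37.7 in part 6. Its difference between the sides was 0.83 ± 0.15 (limma adjusted p = 0.0473), and that between the steps 1.90 ± 0.32 (limma adjusted p = 0.0461). Cntn2, described above, had 13.6 and 17.9 in part 5 and 17.7 and 20.1 in part 6, with a difference between steps of 1.37 ± 0.20 (limma adjusted p = 0.0275). Deptor, an inhibitor of mTOR kinase, had 139 and 65.2 in part 3 and 139 and 74.5 in part 4, against 51.1 and 27.5 in part 1 and 73.1 and 40.7 in part 2, and then 117 and 43.8 in part 5 and 73.3 and 33.4 in part 6. Its sides overlapped, since replicate 1 was above replicate 2 in every piece, and within each number parts 3 and 4 were higher (difference between the sides 1.05 ± 0.16, limma adjusted p = 0.0334). Other probe sets of Deptor gave 0.70 and 1.01 and did not pass. Spsb1, an adaptor of ubiquitin ligases, was lower in parts 3 and 4 instead, at 36.6 and 29.7 in part 3 and 29.7 and 32.1 in part 4, against 90.2 and 60.1 in part 1 and 81.7 and 53.5 in part 2, and then 52.02 and 24.9 in part 5 and 80.1 and 71.2 in part 6. It differed by -1.03 ± 0.15 (limma adjusted p = 0.0251), and replicate 2 of part 5 stayed as low as parts 3 and 4. Its following step of 0.65 did not pass (limma adjusted p = 0.113), and another probe set of Spsb1 gave a difference between the sides of -0.18, which did not pass.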

How the data were processed

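The authors deposited intensities on a linear scale, with a single MAS5 signal for every probe set of an array, as the submitters' processing notes name it. For its version and settings, the sources used here give nothing. Per the labels' protocols, RNA was amplified in a double round and labelled with biotin, a procedure known to favour 3′ ends. Of 45101 probe sets, 64 controls were left out, and names came from GEO's platform annotation (34958 with 1 symbol, 932 with several, 9211 with none; 34754 updated by Entrez identifier). Probe sets above the median of their own array in at least 2 of 12 arrays were kept (21679), and each gene was represented by its brightest one (12089 genes). The scale was log2(signal + 4.43), where the pseudocount is 0.25 times the median signal (17.7), and arrays were not normalized again.

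All fits used limma 3.58.1 (R 4.3.3) at an adjusted p of 0.05; every adjusted p is from limma. The number of arrays limits the precision. Replicate numbers were taken to pair the arrays, since arrays with the same number deviated together from the means of their pieces (r from 0.217 to 0.266) in all 6 pairs of pieces 1 to 4, and the design text names 2 embryos. Each fit was also run on simulated data. Those data left out the difference between neighbouring pieces, so the run does not measure the error of the fit of the sides here.

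Members and gene lists were chosen with earlier results of these data known. The rule for named genes took the 12 largest non-overlapping differences and the 5 widest gaps per direction, up to 4 called members per list or, without a call, the one with the smallest p, and up to 5 genes per direction that returned in parts 5 and 6. It passed over clone and predicted symbols. RefSeq promoters (GRCm38.p6, 1 start per gene, that with the lowest coordinate) matched 45 of 64 named, 102 of 141 called and 9783 of 12089 tested genes.

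Alternatives changed the offset, the filter, the normalization, the probe set, the block, the coefficients and the arrays used.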

Additional observations from a re-analysis of the deposited data

Results flagged for a closer look

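Among the 4 arrays of a side, 1 array stood apart from the other 3 on the log2 scale, by Dixon's criterion, in 7 of the 128 groups examined (64 named genes on 2 sides). Chance marks about 1 in 20 such groups.

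In parts 3 and 4, Tox2 had 592.8 in replicate 2 of part 3, below 1159 to 1306 in the other 3 arrays. Wnt3a had 14.9 in replicate 1 of part 3, below 24.1 to 25.4. Fzd9, which was not called, had 58.7 in replicate 2 of part 3, below 70.6 to 71.0. Cdx2, also not called, had 659 in replicate 1 of part 4, below 858 to 884. Gata6, not called, had 17.4 in replicate 1 of part 3, above 11.4 to 11.7, all under the array median. Bub1, not called, had 908.5 in replicate 2 of part 4, below 1086 to 1120. In parts 1 and 2, Lmo2 had 246 in replicate 2 of part 2, below 562 to 609.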

How the results depend on the processing

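The counts of calls for the sides (141) and for the difference between the steps (89) moved with the processing. With an offset of 1 they were 62 and 46, and with 16 they were 313 and 137. Without a filter on dim probe sets they were 22 and 32 over 18193 genes, and with the filter at the 75th percentile 216 and 149 over 7436. With 1 coefficient per piece, the sides gave 407 calls over 8 arrays, 140 of them among the 141, and 623 over 12 arrays, 137 of them among the 141; by construction this takes the difference between neighbouring pieces out of the error. Without a replicate block the counts were 127 and 60, and 110 of the 141 remained. Quantile normalization gave 112 and 92, and testing every probe set 108 and 70. Leaving out both arrays of a piece gave 0 calls for part 1 (1230 genes at an unadjusted p under 0.05 in limma), 549 for part 2, 72 for part 3 and 0 for part 4 (896 unadjusted). Leaving out 1 array gave 5 to 348 calls for the sides, 13 to 102 for the steps and 0 to 2 for the difference between replicate numbers, which was 0 under the other settings run.

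The share of calls that were higher, 39.7% here, was 50% without the filter and 51.7% without part 2. In the other settings with any call it lay between 32.1% (without replicate 2 of part 3) and 49.1% (1 coefficient per piece, 12 arrays). Of the 48 named genes that passed, all lost their call in the 2 settings with 0 calls. Klb lost it in no other, and Rfx4, Ndnf, Sox21, Scara5, Rspo3 and Ets2 lost it in 3 settings each. At the other end, Cntn2 lost it in 15 of its 19 settings, Eogt, Notch4 and Aldh1b1 in 14 of 20, and Cited1 in 14 of 19. Tbx6 and Krt8 lost it in 13 of 20, and Irx3, Miat, Boc and Pax3 in 11 of 20. On another probe set the sign turned in Hoxd8 (0.13) and Bub1 (0.16), neither of them called, and the difference between steps turned in Cd40 (0.23). Dimmer probe sets of Rspo3 (-1.92) and Cdkn1a (-1.21) and the dimmest of Ets2 (-1.57) kept the sign and did not pass. Except where stated, the cause of these changes was not tested. MAS5 signals near background limit the rest: 40 of the 141 genes were at or under the array median in all 4 arrays of their lower side, so their lower level was not told from background.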
